A study of Mus musculus with 2 samples.

Results

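The genes described here mark the mesangial cell of the kidney glomerulus and the contractile apparatus that it shares with vascular smooth muscle: Acta2, Tagln, Myh11, Cnn1, Fhl2, Mcam, Itga8, Gata3 and Thy1. Members were taken by gene symbol: a probe set (a group of short oligonucleotides for 1 transcript) was included when the platform annotation named exactly 1 of the 9 genes for it. This gave 9 of 18193 genes with such a probe set, or 13 probe sets of 45101 on the array. RNA came from glomeruli, the filtering units of the kidney, dissected from male mice aged 20 weeks. The strain, KK/Ta, is inbred and prone to obesity and type 2 diabetes. Mice had received a high-fat diet (HFD, 1 array) or a normal fat chow (Chow, 1 array), and both diets were given to this strain, so no other strain enters the comparison. The number of animals behind an array is unclear: the series text mentions 3 mice, and pooling of RNA is not described.

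Mesangial cells hold the capillary loops of the glomerulus together. They contract through actin and myosin like smooth muscle, attach to matrix through integrins, and in glomerular injury can begin to express smooth muscle alpha-actin, which is then used as a marker of their activation. The serum response factor (SRF), with myocardin family cofactors, switches on many contractile genes through a short A/T-rich promoter element, the CArG box.

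Values are single measurements. No replicate check and no test exist between the diets, and a difference describes these 2 RNA preparations only. Signals are the deposited linear intensities, and differences are HFD minus Chow on the log2 scale after each array was centred on its median. A floor lay at each array's 50th percentile, a signal of 42.3 for HFD and 44.9 for Chow. No difference is given for a probe set under it on both arrays. Across the 18980 probe sets with 1 gene name above the floor on both arrays, the scatter of differences (scaled median absolute deviation, in 10 bins of signal) ran from 0.36 log2 units at low signal to 0.15 in the brightest bin, and it holds technical noise and real differences together. The median difference of a bin ran from 0.03 to 0.06. Multiples of the scatter given below divide a difference by the scatter without taking off its bin median. Those of positive differences are therefore somewhat larger than distances from the bin median. Control probe sets of Gapdh stood at 0.20 to 0.28 and those of beta-actin at 0.14 to 0.28. Podocyte markers, which define glomerular tissue, were bright on both arrays. Nphs1, encoding nephrin of the podocyte slit diaphragm, had a signal of 5421 in HFD and 5427 in Chow, and Podxl, a podocyte surface sialoprotein, had 15316 in HFD and 16261 in Chow.

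RefSeq promoter windows (assembly GRCm38.p6) were matched for 6 of the 9 genes, with 7 windows because Fhl2 has a pair of annotated starts. Tagln, Myh11 and Thy1 had no matched window, so their promoters were not searched. In the 250 bases before the start, a full CArG box was found in both Fhl2 windows, and Acta2 carried a pair of CArG boxes in which 1 base of the A/T core is G or C. The windows of Cnn1, Mcam, Itga8 and Gata3 held neither form. The 3 windows below are shown because they hold a box. Mcam, which like Acta2 and Fhl2 had a higher signal in HFD, held none. The coordinates are chr19:34255374-34255623 (minus strand) for Acta2, chr1:43196762-43197011 (minus strand) for the first Fhl2 start and chr1:43163962-43164211 (minus strand) for the second. Each is written 5′ to 3′ and ends at the base before the annotated start, and capitals mark the CArG boxes.
Acta2: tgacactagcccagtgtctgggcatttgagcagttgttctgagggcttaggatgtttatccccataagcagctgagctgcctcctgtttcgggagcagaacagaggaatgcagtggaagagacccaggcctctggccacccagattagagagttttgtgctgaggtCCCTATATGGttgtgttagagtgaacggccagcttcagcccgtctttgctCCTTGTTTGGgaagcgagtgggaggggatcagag
Fhl2, first start: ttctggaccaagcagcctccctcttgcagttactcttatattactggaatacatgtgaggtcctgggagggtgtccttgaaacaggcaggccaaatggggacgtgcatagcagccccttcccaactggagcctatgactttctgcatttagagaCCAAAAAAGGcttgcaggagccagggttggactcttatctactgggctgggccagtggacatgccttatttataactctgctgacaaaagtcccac
Fhl2, second start: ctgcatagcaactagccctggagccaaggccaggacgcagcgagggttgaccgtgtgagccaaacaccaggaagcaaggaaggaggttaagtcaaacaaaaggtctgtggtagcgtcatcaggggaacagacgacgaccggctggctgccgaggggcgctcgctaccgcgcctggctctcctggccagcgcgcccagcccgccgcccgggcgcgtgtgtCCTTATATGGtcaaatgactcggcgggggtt

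The Acta2 boxes begin 84 and 34 bases before the start, and the Fhl2 boxes begin 96 and 31 bases before their starts. The element reads the same in form on both strands, so 1 search covers both. Of all 32851 promoter windows in the table, 1.47% held a full CArG box and 8.59% held a full box or one with 1 such substitution. Of the 23 windows of the further mesangial genes listed below, 1 (4.35%) held a full box and 2 (8.7%) held either form. Of the 28 windows of the further contractile genes listed below, 3 (10.7%), from 3 of 22 genes, held a full box. The 3 genes, Myl9, Myl6 and Vcl, were named after their values were seen. They differed by 0.38, -0.06 and 0.23. A match of letters is a description and shows no binding.

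**Figure D1:**
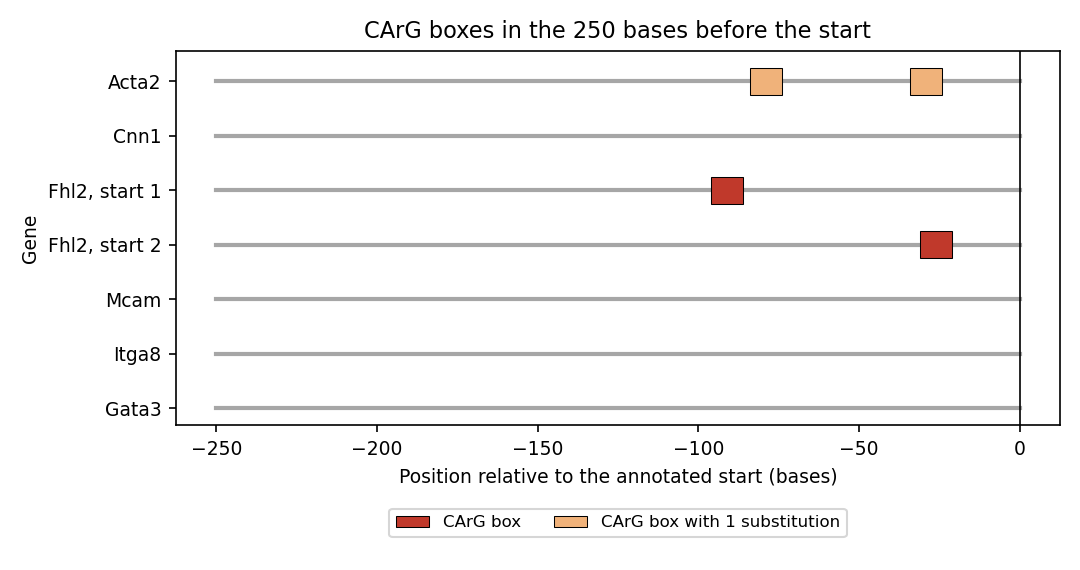
The 250 bases before each annotated start are drawn as grey lines for 6 genes (Fhl2 has 2 starts), with position in bases relative to the start on the horizontal axis. Red blocks are full CArG boxes and orange blocks are boxes with 1 substitution. Among the 6 genes, blocks appear only for Acta2 and Fhl2. Tagln, Myh11 and Thy1 had no window and are not drawn.

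Of the 13 probe sets, 8 were above the floor on both arrays and 5 were under it on both, so 7 of the 9 genes gave a difference. Acta2, Tagln, Fhl2 and Mcam had higher signals in HFD by 1.32-fold to 1.60-fold. Itga8 and Gata3 differed by 1.05-fold to 1.21-fold, and Myh11 was slightly lower in HFD. Cnn1 and Thy1 were not measured above the floor. In bulk RNA, fewer cells of a type and less RNA per cell cannot be told apart, in either direction.

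**Figure D2:**
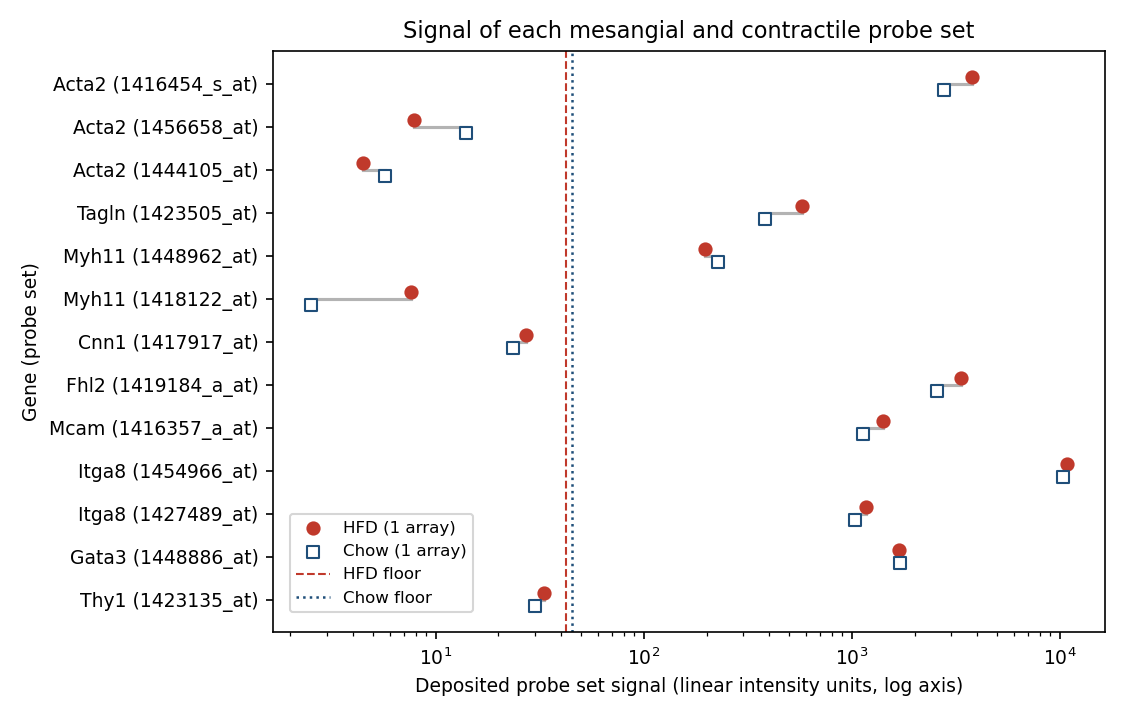
Deposited signal of each of the 13 probe sets on a log axis, with red circles for HFD and open blue squares for Chow (1 array each). Vertical lines mark the floors of 42.3 (HFD) and 44.9 (Chow). 8 probe sets lie right of both lines and 5 lie left of both, and the widest gap among the 8 is that of Tagln.

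Acta2 encodes smooth muscle alpha-actin, the thin filament actin of vascular smooth muscle and of activated mesangial cells. Its probe set 1416454_s_at had a signal of 3782 in HFD and 2784 in Chow, a difference of 0.53 (1.44-fold). That was 3.41 times the scatter of probe sets of like signal, and 1.26% of the probe sets in the same signal bin had a difference at least as high. The suffix of this probe set marks probes that may match several transcripts. Actg2, the enteric smooth muscle actin (chosen after its values were seen), was under the floor, with a signal of 3.33 in HFD and 0.71 in Chow. Matches of the 1416454_s_at probes to other actin genes, such as beta-actin, were not tested. The other two Acta2 probe sets, 1456658_at and 1444105_at, were under the floor on both arrays, at 7.84 and 4.46 in HFD and 14.0 and 5.68 in Chow. The Acta2 difference therefore rests on 1 probe set. With the floor at the 30th percentile, 1456658_at was above it in Chow only, at a bound of -0.099.

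Tagln encodes transgelin (SM22 alpha), an actin-binding protein of the calponin family and an early smooth muscle marker. Its probe set 1423505_at had a signal of 574 in HFD and 381 in Chow, a difference of 0.68 (1.60-fold), 3.18 times the scatter at that signal. In the same signal bin 1.84% of probe sets had a difference at least as high. This was the largest difference among the 8 measured member probe sets.

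Myh11 encodes the smooth muscle myosin heavy chain, a marker of fully differentiated smooth muscle. Its probe set 1448962_at had a signal of 196 in HFD and 227 in Chow, a difference of -0.13, smaller than the scatter of 0.26 at that signal. The second Myh11 probe set, 1418122_at, read 7.59 in HFD and 2.51 in Chow, far under the floor, where signals have no order. Cnn1 encodes calponin 1, which binds actin and restrains myosin. Its probe set 1417917_at was under the floor, with 27.1 in HFD and 23.5 in Chow. With the floor at the 30th percentile Cnn1 stood at 0.29. Of the 4 contractile members, Acta2 and Tagln were thus higher in HFD, Myh11 was not, and Cnn1 gave no measured difference.

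Fhl2 encodes a protein made of LIM domains that acts as a cofactor of transcription and at focal adhesions. Its probe set 1419184_a_at had a signal of 3345 in HFD and 2576 in Chow, a difference of 0.46 (1.38-fold), 2.99 times the scatter at that signal. In the brightest bin 1.48% of probe sets had a difference at least as high. Mcam encodes CD146, an adhesion molecule of the immunoglobulin superfamily on smooth muscle cells, pericytes and endothelium. Its probe set 1416357_a_at had a signal of 1405 in HFD and 1130 in Chow, a difference of 0.40 (1.32-fold), 2.33 times the scatter. Endothelial markers also make up part of glomerular RNA, and their list median was 0.18.

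Itga8 encodes the alpha-8 integrin chain, which pairs with the beta-1 chain, binds matrix ligands such as nephronectin and in the glomerulus marks mesangial cells. It was the brightest member, with 10804 in HFD and 10337 in Chow by probe set 1454966_at, 255 times the floor on the HFD array and 230.4 times on the Chow array. Its difference was 0.15, which is 0.96 times the scatter at that signal, and it was 0.064 without centring, 0.095 with quantile and 0.091 with loess scaling. The second probe set, 1427489_at, had 1174 in HFD and 1030 in Chow, a difference of 0.27, 1.48 times the scatter. Both Itga8 probe sets were higher in HFD by 1.11-fold and 1.21-fold, and both differences lie within the range of the beta-actin control probe sets (0.14 to 0.28).

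Gata3 encodes a transcription factor expressed by mesangial cells and by the collecting duct. Its probe set 1448886_at had a signal of 1687 in HFD and 1694 in Chow. Centring turned this into a difference of 0.08, and without centring it was -0.0065, so the sign depends on the scaling. Loop, distal tubule and collecting duct markers had a median of 0.63 on the same arrays. Thy1 encodes a glycosylphosphatidylinositol-anchored surface glycoprotein that marks mesangial cells in the rat and T cells and neurons in the mouse. Its probe set 1423135_at was under the floor, with 33.0 in HFD and 30.1 in Chow, and with the floor at the 30th percentile it stood at 0.22. Of the lymphocyte markers, 2 of 11 matched genes were above the floor.

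As a group, none of the 8 measured probe sets reached 2-fold: 0 were higher by that much in HFD, against 0.600% of all 20317 probe sets above the floor, and 0 were lower, against 0.192%. At 1.5-fold, 1 of 8 was higher (Tagln) and 0 lower, against 3.78% and 1.97% of all. At 1.2-fold, 5 of 8 were higher and 0 lower, against 17.5% and 11.8% of all. The 5 belong to Tagln, Acta2, Fhl2, Mcam and the dimmer Itga8 probe set, which lay just past that threshold. Without centring, or with quantile or loess scaling, 4 of 8 were higher. These counts cover the measured 8 and say nothing of the 5 under the floor. With each gene taken by its brightest probe set, the median over 7 genes was 0.40 log2 units, against 0.06 over all 11356 genes above the floor, of which 62.2% were higher in HFD (46.1% without centring). Adding each array's 25th percentile in place of the floor brought the median to 0.21 over 9 genes, and leaving out shared probe sets, Acta2 among them, brought it to 0.27 over 6 genes. The 3 measured contractile genes had a median of 0.53 and the 4 measured mesangial genes one of 0.27, with ranges that overlapped (-0.13 to 0.68 and 0.08 to 0.46). Of the 9 genes, 4 (Tagln, Cnn1, Mcam and Thy1) lie on chromosome 9 in RefSeq, and 2 of these gave a difference. The share of all genes on that chromosome is not given here, and a link of position to the differences was not tested.

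**Figure D3:**
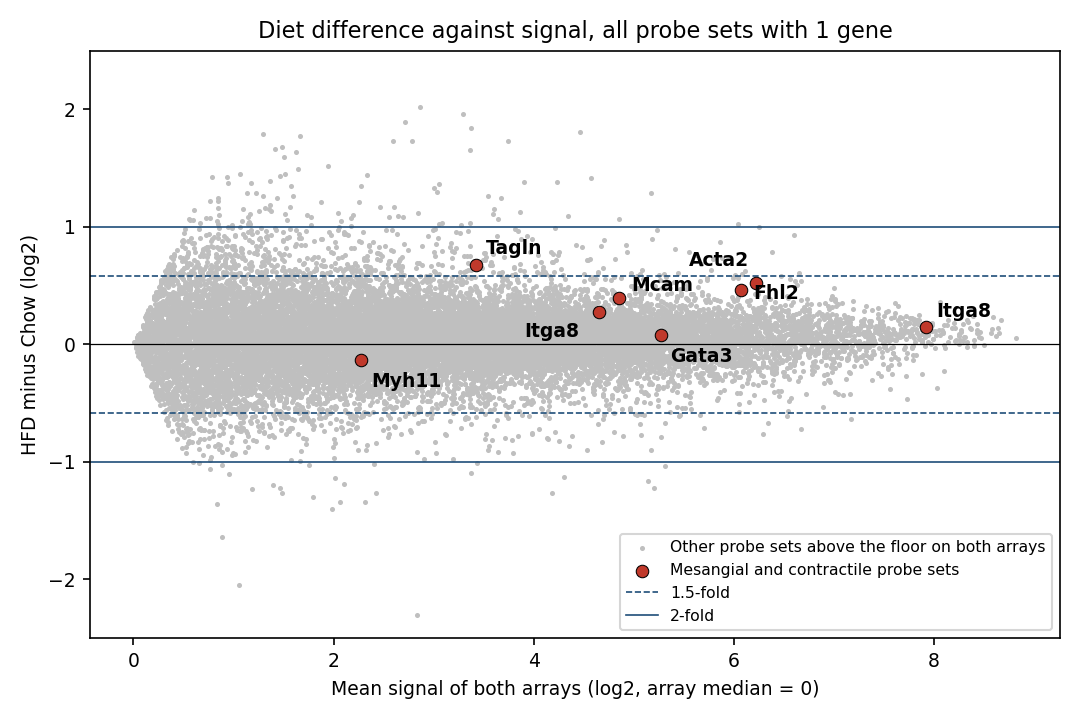
HFD minus Chow difference (log2) against the mean signal of both arrays (log2, array median at 0) for all probe sets with 1 gene name above the floor on both arrays (grey), with the 8 measured member probe sets in red. Dashed and solid lines mark 1.5-fold and 2-fold. Tagln alone lies outside the dashed lines, and Acta2 (0.53) and Fhl2 (0.46) lie near the upper edge of the grey cloud at their signal.

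**Figure D4:**
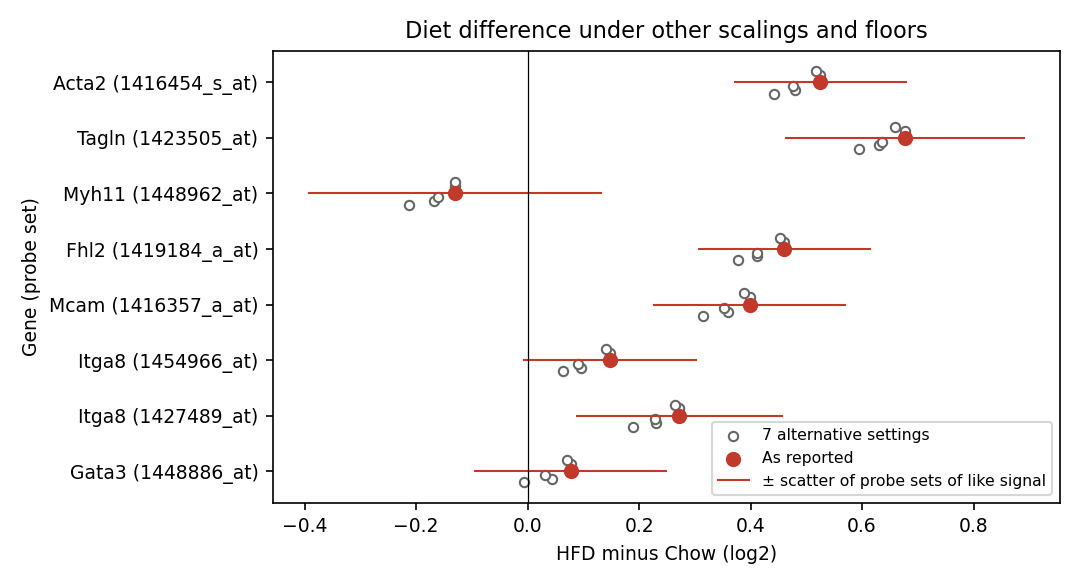
HFD minus Chow difference (log2) of the 8 measured probe sets as reported (red), with a line of plus and minus the scatter of probe sets of like signal, and under 7 other scalings or floors (open circles). The lines of Acta2, Tagln, Fhl2, Mcam and the dimmer Itga8 probe set stay right of 0. Those of Myh11, Gata3 and the brighter Itga8 probe set cross it.

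Further contractile genes were mostly higher in HFD by small amounts. Of 22 above the floor, 20 (90.9%) were higher, against 62.2% of all genes (15, or 68.2%, against 46.1% without centring), 5 of them by at least 1.2-fold (18.1% of all genes were that much higher and 9.02% lower), and 0 reached 1.5-fold in either direction (4.21% of all genes were that much higher and 1.41% lower). Lmod1, leiomodin 1 (named after its values were seen), was above the floor in Chow only, with 28.9 in HFD and 51.1 in Chow, so its value of -0.19 is a bound set by the floor. The list median was 0.17 (0.086 without centring). The largest differences were those of Synpo2, an actin-bundling protein (0.46), Tpm2, beta-tropomyosin (0.46), and Csrp1, a LIM protein of smooth muscle (0.40). Synpo2 had a low signal, 73.7 in HFD and 56.6 in Chow, and 1 of its 4 probe sets was above the floor. Tpm2 had a signal of 1710 in HFD and 1321 in Chow, and its second measured probe set was higher as well.

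Of 11 listed genes for SRF, myocardin and their cofactors, 9 were matched by symbol and 7 were above the floor. The cofactor genes Mkl1 and Mkl2 were not matched, and Gata6 and Fhl3 were under the floor. The 7 had a median of 0.02 (-0.06 without centring), with 4 (57.1%) higher and 3 lower, beside 62.2% of all genes higher. Myocd, the smooth muscle coactivator of SRF, stood at 0.33 at a low signal (63.4 in HFD and 53.6 in Chow), Fhl1, a relative of Fhl2, at 0.23, and Klf4, a repressor of contractile genes in smooth muscle, at -0.17 (its second probe set at 0.08). Srf itself (named after its values were seen) stood at -0.15, with 800 in HFD and 939 in Chow. The part of these genes in the differences of Fhl2 (0.46), Acta2 (0.53) and Tagln (0.68) was not tested. Of 9 TGF-beta ligand, receptor and Smad genes, 8 (88.9%) were higher and 1 lower, beside 62.2% of all genes higher, with a median of 0.18. Without centring 7 (77.8%) were higher, beside 46.1% of all genes, and the median was 0.0999. Tgfb2 stood at 0.55, the inhibitory Smad gene Smad7 at 0.47 (its second probe set at -0.0043) and Tgfb1, encoding a ligand that induces Acta2 in many cell types, at 0.40 (its second probe set, measured in Chow only, at a bound of -0.013).

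Of 19 further mesangial genes above the floor, 12 (63.2%) were higher and 7 lower, beside 62.2% of all genes, with a median of 0.19. Without centring the count was the same, beside 46.1% of all genes, and the median was 0.11. Fn1, encoding fibronectin, was 1.57-fold higher at a low signal (104 in HFD and 70.2 in Chow), Lhfp 1.52-fold higher (5262 in HFD and 3668 in Chow) and Fblim1, a focal adhesion LIM protein, stood at 0.50. Pdgfrb, the receptor for platelet-derived growth factor B on mesangial cells, stood at -0.12 (5060 in HFD and 5811 in Chow), Pdgfra at -0.28 and the intermediate filament gene Des at -0.02, whereas the proteoglycan gene Cspg4 stood at 0.25, the integrin gene Itga1 at 0.21 and the angiotensin receptor gene Agtr1a at 0.20. These 6 were chosen after their values were seen.

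Markers of other cells differed on the same arrays, in part by more than any member. Of 15 macrophage and myeloid markers above the floor, 12 were higher in HFD by at least 2-fold (0.722% of all genes were). The list median was 1.28 (0.90 to 1.45 across the scalings and floors), with a summed signal of 6759 in HFD and 2789 in Chow. Cd68, C1qa and C1qb were above the floor in HFD only, so their values are bounds set by the floor. The list median is the bound of Cd68. The leading markers of this list were the antigen presentation genes H2-Eb1 (1.96) and Cd74 (1.84) and the phagocyte oxidase gene Cybb (1.79). Proximal tubule markers had a median of 0.58 over 14 genes, with a summed signal of 18052 in HFD and 13238 in Chow, led by Slc22a6 (1.21), Cyp2e1 (0.97) and Slc27a2 (0.78). In the distal list 10 of 12 were higher (62.2% of all genes were), with a summed signal of 9115 in HFD and 6521 in Chow. It was led by Slc12a3 (0.83), Calb1 (0.82) and, at a low signal (75.3 in HFD and 45.8 in Chow), Cldn8 (0.80). The distal list genes Scnn1b and Atp6v1b1 were above the floor in HFD only. The part of these cells in the member differences was not tested.

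Arteriolar muscle also expresses Acta2 and Tagln. Pericyte and fibroblast markers had a median of 0.03 (-0.06 without centring), with 5 of 9 higher (62.2% of all genes were). Their summed signal was 13787 in HFD and 13542 in Chow. Col3a1 stood at 0.95 (167 in HFD and 91.1 in Chow), Postn at -0.60 and the pericyte gene Rgs5 at 0.37. Col1a1 was under the floor, with 3.56 in HFD and 12.0 in Chow, whereas Col1a2, the other type I collagen gene, had 2117.5 in HFD and 2249.8 in Chow (-0.0040). Both were named after their values were seen. Of 5 listed renin cell markers 3 were matched by symbol, and Ren1, the renin gene, and Akr1b7 were not. The 3 were higher in HFD, beside 62.2% of all genes. Aldh1a2, a retinoic acid synthesis enzyme, stood at 1.41 and Rgs5 at 0.37. The connexin gene Gja5 stood at 0.27 at a low signal (74.3 in HFD and 65.3 in Chow). The summed signal of the 3 was 8777 in HFD and 6516 in Chow. Rgs5 is also in the pericyte and fibroblast list, and Gja5 in the further mesangial list. The smooth muscle markers Myh11 and Cnn1 were at 196 and 27.1 in HFD and at 227 and 23.5 in Chow. The Myh11 difference of -0.13 was smaller than the scatter at its signal (0.26), and Cnn1 was under the floor on both arrays. The part of arteriolar muscle in the difference of Acta2 and Tagln was not tested.

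Podocyte markers had a median of -0.06 (-0.15 without centring), with 9 of 12 lower (12 of 12 without centring). Dach1 (-0.78), Thsd7a (-0.42) and Nes (-0.23) were furthest from 0. Of all genes 62.2% were higher in HFD (46.1% without centring). Endothelial markers had 10 of 14 (71.4%) higher and a median of 0.18 (9 of 14, or 64.3%, and 0.10 without centring). Vwf stood at 1.22 (116 in HFD and 52.8 in Chow), Plvap at 0.50 and Sox18 at 0.39. The medians of the endothelial, TGF-beta, further contractile and further mesangial lists (0.17 to 0.19) lie within the range of the beta-actin control probe sets (0.14 to 0.28). Parietal epithelial markers had a median of 0.16 over 5 genes (-0.0081 with the floor at the 70th percentile): Cd44 was at least 1.90-fold higher (above the floor in HFD only), Scin stood at -0.49 and Cldn1 at 0.45. The lymphocyte genes above the floor were Ighm (0.54) and Cd8a (-0.18), with a median of 0.18.

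**Figure D5:**
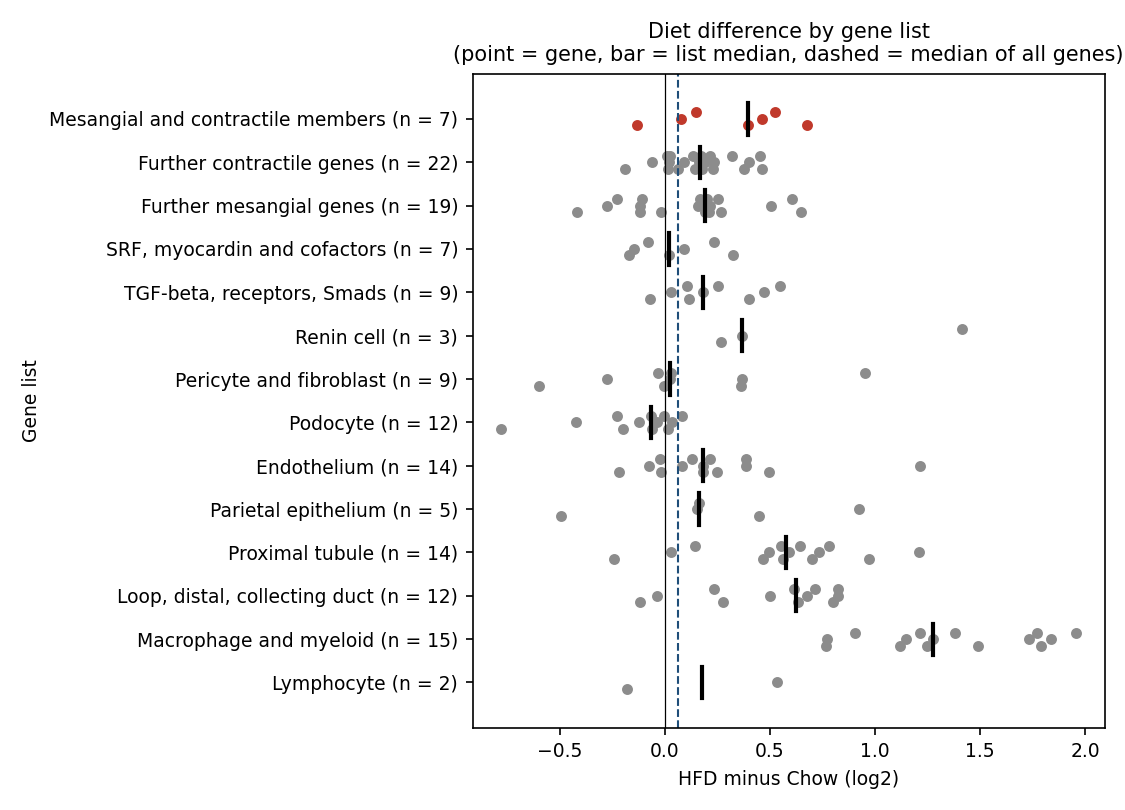
HFD minus Chow difference (log2) of each gene above the floor, by its brightest probe set, in the 9-gene group described here (red, 7 measured) and in 13 further lists (grey). Black bars are list medians and the dashed line is the median of all genes (0.06). The member median (0.40) lies right of those of the further contractile (0.17), mesangial (0.19) and podocyte (-0.06) genes and left of those of the tubule (0.58 and 0.63) and myeloid (1.28) lists.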

How the data were processed

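Total RNA was purified on Qiagen columns and labelled by two-cycle amplification for Affymetrix Mouse Genome 430 2.0 arrays, per the labels' protocols. The authors deposited 1 linear intensity per probe set and array. Their probe summary and scaling steps are not given in the sources used. GeneSpring 7.3.1 is named in the series text.

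The 64 control probe sets were set aside, and deposited intensities were put on a log2 scale and centred on each array's median, which added 0.083 to every difference. Signals below the floor were set to it. The platform annotation (2016) gave 1 symbol for 34945 probe sets, several for 932 and none here for 9160. A gene was represented by its brightest probe set. The number of arrays, 1 per diet, limits the precision. Python 3.11.15, pandas 2.3.3 and statsmodels 0.14.6 were used. The centring and difference steps were also run on simulated data, with differences planted in bright probe sets only. That run did not examine signals near the floor or scatter of the size seen at low signal.

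The members, the 13 gene lists, the naming rule (all member probe sets, and the 3 largest absolute differences of each list) and the alternatives were chosen with earlier results of these data known, so no list is independent support. List genes without a matching symbol were not analysed here.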

Additional observations from a re-analysis of the deposited data

How the results depend on the processing

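The 8 member differences were recomputed without centring, with quantile normalization, with a loess fit, with floors at the 30th and 70th percentile, with no floor and with the 25th percentile added. Each moved by less than the scatter at its signal, which was largely fixed in advance. Changing or dropping the floor left all 8 unchanged, since each lay above the 70th percentile on both arrays. Dropping the centring moved each by the same 0.083, less than the smallest scatter (0.15). The settings cannot show how far replicate arrays would differ. Tagln ran from 0.59 to 0.68, Acta2 from 0.44 to 0.53, Fhl2 from 0.38 to 0.46, Mcam from 0.31 to 0.40, the Itga8 probe sets from 0.064 to 0.15 and from 0.19 to 0.27, Gata3 from -0.0065 to 0.077 and Myh11 from -0.21 to -0.13. The median over member genes ran from 0.21 to 0.40. With no floor, 2 member probe sets were at least 1.5-fold higher and 1 was at least 1.5-fold lower, since probe sets of Myh11 and Acta2 far under the floor then counted. The number of higher probe sets was 0 at 2-fold, 1 at 1.5-fold and 5 at 1.2-fold. The same settings were run for the other lists after their values were seen. With the 70th percentile floor the renin cell median was 0.89 and the myeloid one 0.90, and no lymphocyte gene was left. With no floor the lymphocyte median was 0.57. Some list medians near 0 changed sign: the SRF list ran from -0.083 to 0.022, the pericyte and fibroblast list from -0.056 to 0.027 and the parietal list from -0.0081 to 0.17. The podocyte median ran from -0.15 to -0.063, the contractile one from 0.086 to 0.17 and the mesangial one from 0.11 to 0.19. No paired analysis was possible because each diet has 1 array. Signals near the floor limit Cnn1 and Thy1.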
